A study of Mus musculus with 6 samples.

Results

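A single cassette exon is an exon that transcripts of a gene either include between its neighbours or skip whole, and it preserves the reading frame when its length is a multiple of 3 nucleotides. Such exons were collected from 6 catalogues of splicing events of the mouse nucleus accumbens, as all entries for the skipping of 1 exon with a length from 31 to 300 nt divisible by 3. A region was defined by its gene, strand and exact splice positions, so that an exon skipped between different neighbours counts as more than 1 region. There were 3982 such regions among 128790 distinct events and among 8967 single cassette exons of any length, and the comparison set was the 3799 single cassette exons of the same length range that shift the frame. The 3982 regions held 3722 distinct exons in 2640 of the 15938 genes listed. The tissue came from C57BL/6N mice that went through conditioned place preference, a test of reward learning. The saline group (3 samples, replicates 1 to 3) received saline injections and the morphine group (3 samples, replicates 4 to 6) received morphine, an opioid receptor agonist; age, dose and genetic changes are not named in the labels. The design text gives 6 mice per group and 3 samples per group without tying mice to samples, so all p-values measure the spread between samples.

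The nucleus accumbens is a ventral striatal region of the reward circuit and consists mostly of medium spiny neurons, GABAergic projection neurons that carry dopamine and opioid receptors. Skipping of a cassette exon whose length is a whole number of codons removes or adds a stretch of amino acids and leaves the downstream frame intact, whereas skipping of other coding exons shifts the frame and often brings in an early stop codon that marks the RNA for decay. Brain is known for many cassette exons, and RNA-binding proteins of the Rbfox, Mbnl, Celf, Nova and Elavl families control many of them.

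The catalogues record only whether an event was listed in a library. They hold no usable expression value and no read depth, so a region that is not listed was not recorded there, which does not show that it was not spliced in that tissue. The libraries listed 54641 to 58007 distinct events in 14121 to 14791 genes. All 13 marker genes of medium spiny neurons had events in all 6 libraries, as did 8 of 8 astrocyte, 7 of 7 oligodendrocyte and 6 of 6 microglial markers. The same held for 4 of 5 endothelial, 5 of 6 glutamatergic neuron and 4 of 6 ependymal and choroid markers. The endothelial marker Cldn5 had no events. Of all 15939 gene IDs, 12938 had events in all 6 libraries, so these marker counts say little about cell types. Frame-preserving cassette exons were listed for 3 of the 13 medium spiny neuron markers (Drd2, Tac1 and Bcl11b; 3 to 5 regions per library) and for 3 of the 7 oligodendrocyte markers (Mbp, Mog and Mag; 6 to 8 regions per library). The endothelial marker Pecam1 had 3, 2 and 3 regions in saline replicates and 2 in each morphine replicate. The ependymal marker Ccdc39 had 2, 2 and 0 regions against 1 in each morphine replicate, and of the 6 ependymal and choroid markers 6, 5 and 5 had events in the saline libraries against 4, 5 and 4. None was listed for the astrocyte, microglial or glutamatergic markers.

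Sequences below are those of the annotated exons in GENCODE M21 on the mouse build GRCm38, read 5′ to 3′ on the strand of the gene. The first set shows receptor exons in which whole codons enter or leave a protein, with the last 3 exon bases, the exonic part of the 5′ splice site, in capitals. Grin1 encodes the obligatory NMDA receptor subunit; its 63-nt exon (chr2:25311343-25311405, minus strand, exon 4 of 21, 21 codons) lies in the extracellular part and its 111-nt exon (chr2:25294438-25294548, minus strand, exon 20 of 21, 37 codons) in the intracellular tail. The 87-nt exon of Drd2 (chr9:49403194-49403280, plus strand, exon 6 of 8, 29 codons) separates the long from the short dopamine D2 receptor. All 3 exons begin at a codon boundary.
Grin1, 63 nt: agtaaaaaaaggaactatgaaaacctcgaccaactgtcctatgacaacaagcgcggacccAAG
Grin1, 111 nt: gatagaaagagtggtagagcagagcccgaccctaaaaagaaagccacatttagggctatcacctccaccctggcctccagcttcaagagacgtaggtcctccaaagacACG
Drd2, 87 nt: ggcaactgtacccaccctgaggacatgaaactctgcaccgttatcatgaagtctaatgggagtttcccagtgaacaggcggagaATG

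The second set shows exons of equal length from related genes, in which capitals mark the bases that are identical in both members of a pair. Camk2d and Camk2g encode subunits of CaM kinase II, and the exon shown is known for its nuclear localisation signal. Clta and Cltb encode the clathrin light chains and Mbnl1 and Mbnl2 are RNA-binding splicing regulators. The exons lie at chr3:126802937-126802969 (Camk2d, plus strand), chr14:20747819-20747851 (Camk2g, minus), chr4:44030215-44030268 (Clta, plus), chr13:54597026-54597079 (Cltb, minus), chr3:60614683-60614736 and chr3:60621423-60621458 (Mbnl1, plus), and chr14:120395712-120395765 and chr14:120403336-120403371 (Mbnl2, plus). All are wholly coding.
Camk2d, 33 nt: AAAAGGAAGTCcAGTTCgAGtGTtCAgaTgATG
Camk2g, 33 nt: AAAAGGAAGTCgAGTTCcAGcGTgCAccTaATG
Clta, 54 nt: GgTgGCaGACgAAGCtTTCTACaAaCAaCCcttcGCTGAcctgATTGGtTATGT
Cltb, 54 nt: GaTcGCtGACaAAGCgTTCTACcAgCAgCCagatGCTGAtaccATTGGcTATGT
Mbnl1, 54 nt: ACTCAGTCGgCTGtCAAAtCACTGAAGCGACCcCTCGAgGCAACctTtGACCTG
Mbnl2, 54 nt: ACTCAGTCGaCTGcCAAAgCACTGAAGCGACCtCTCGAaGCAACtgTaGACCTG
Mbnl1, 36 nt: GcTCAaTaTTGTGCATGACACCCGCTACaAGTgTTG
Mbnl2, 36 nt: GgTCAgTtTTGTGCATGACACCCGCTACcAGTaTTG

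Frame-preserving cassette exons recurred between libraries more often than frame-shifting ones of the same length range. Of the frame-preserving regions, 1256 (31.5%) were listed in all 6 libraries and 1265 (31.8%) in 1 library, whereas 581 (15.3%) of the frame-shifting regions were listed in all 6 and 1673 (44.0%) in 1. Within each library, 51.3 to 57.0% of the frame-preserving regions were listed in all 6, against 31.9 to 37.1% of the frame-shifting regions, and these ranges did not overlap. The means were 54.9 ± 1.99% and 34.7 ± 1.80% (SD, n = 6 libraries). The regions listed in all 6 are the same in every library, so these 6 values restate 1 pooled difference, which is given as a description with no test.

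Split by coding position, the frame-preserving share was higher with more libraries among wholly coding exons. Among single cassette exons that lie wholly in the coding sequence of a protein-coding transcript, the share with a length divisible by 3 was 46.1% of 1612 regions listed in 1 library, 50.2% of 614 in 2, 54.8% of 376 in 3, 64.9% of 350 in 4, 66.2% of 408 in 5 and 80.9% of 1301 in all 6. This share was higher at each step in the number of libraries. Among the other single cassette exons, which lie in untranslated or non-coding parts, only partly in coding sequence, or outside the annotation, it was 39.4% of 1326 regions in 1 library and 37.9% of 536 in all 6, with values from 34.3 to 38.0% between. For reference, 40.1% of 139239 other annotated coding internal exons of 31 to 300 nt of the listed genes have a length divisible by 3. The plot of frame-preserving share by number of libraries shows these 3 levels. Whether an exon is annotated as wholly coding can itself depend on its frame, so the split is not independent of the share compared.

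**Figure D1:**
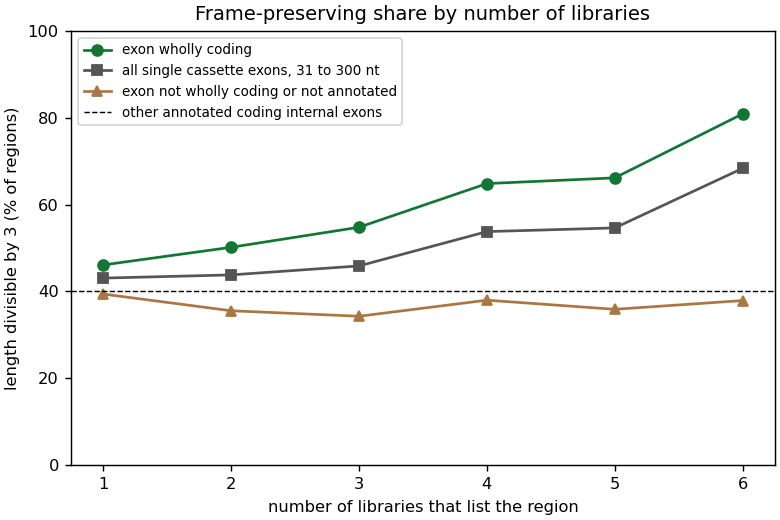
Share of single cassette exons of 31 to 300 nt whose length is divisible by 3 (vertical axis, % of regions) by the number of libraries that list the region (horizontal axis), for wholly coding exons, all exons, and exons that are not wholly coding or not annotated. The dashed line is the share among other annotated coding internal exons, 40.1%. The wholly coding exons go from 46.1% in 1 library to 80.9% in all 6, and the exons that are not wholly coding stay between 34.3 and 39.4%.

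Frame-preserving cassette exons were also the better annotated and more often coding class in every library. The exon itself was annotated for 92.9 ± 0.605% of the frame-preserving and 87.9 ± 1.16% of the frame-shifting regions of a library, the skipping junction for 86.9 ± 0.519% and 77.1 ± 0.673%, and the exon was wholly coding for 76.8 ± 1.09% and 46.4 ± 1.09% (SD, n = 6 libraries each). Each of these was higher for the frame-preserving exons in 6 of 6 libraries (two-sided exact sign-flip permutation test over the 6 libraries, p = 0.0312 each, adjusted p = 0.0312 over 3 comparisons). That p is the smallest 6 libraries can give, the test was chosen after seeing the data, and the libraries list many of the same exons. Over all 3982 frame-preserving regions, 2660 (66.8%) had both inclusion and skipping in the annotation, 646 had inclusion alone, 203 had the exon with other neighbours, 342 had an exon absent from the annotation but an annotated skipping junction, and 131 had neither; 21 regions belong to gene IDs without a match in the annotation and could not be looked up there. The wholly coding regions numbered 2807 (70.5%), and 334 lay wholly in untranslated parts of protein-coding transcripts. Of the 1256 regions in all 6 libraries, 1151 had both forms annotated and 1053 were wholly coding.

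The frame-preserving exons were short, with a median of 96 nt or 32 codons and quartiles of 66 and 138 nt. Regions listed in all 6 libraries had a median of 87 nt and those listed in 1 library of 105 nt. The share of frame-preserving regions that was listed in all 6 libraries was 40.3% at 31 to 60 nt, 33.9% at 61 to 90 nt, 30.2% at 91 to 120 nt, 26.3% at 121 to 150 nt, 25.6% at 151 to 200 nt and 22.1% at 201 to 300 nt. The frame-shifting regions had 20.9, 14.7, 16.6, 12.5, 13.5 and 12.4% in the same bins, below the frame-preserving value in each. The shortest members were 86 regions of 33 nt, 47 of them in all 6 libraries; just below the limit, 53 regions of 30 nt had 23 in all 6. The longest were 6 regions of 297 nt, of which 1 region of the septin gene Sept4 was in all 6. A further region of the same Sept4 exon was in replicates 1, 2, 4 and 6. Just above the limit, 8 regions of 303 nt had 3 in all 6, in Asb1, Phf8 and Rapgef6. In the plot of regions by exon length, the set listed in all 6 libraries shows a comb of frame-preserving lengths above the others, which is shallow in the set listed in 1 library.

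**Figure D2:**
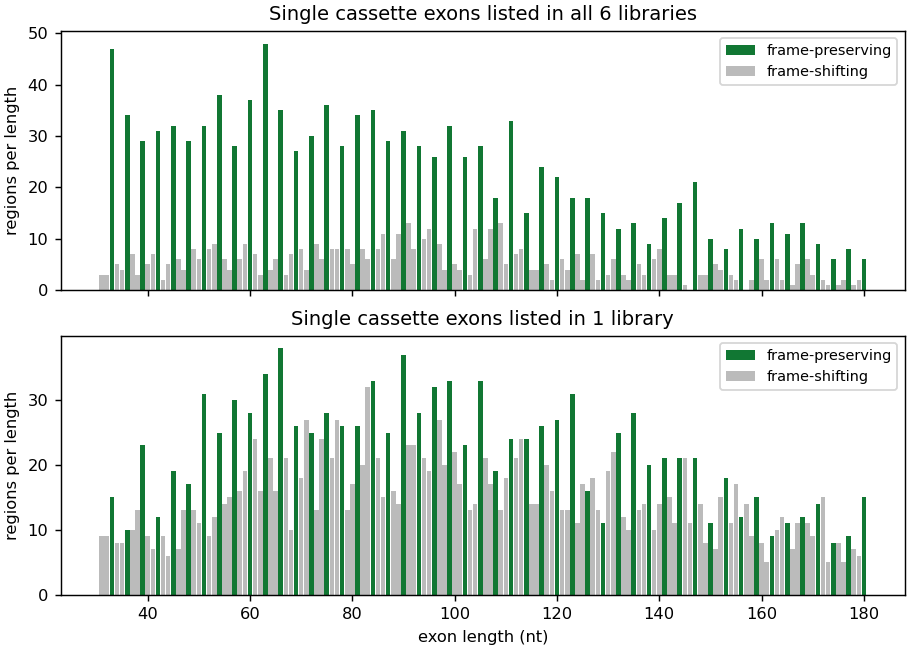
Number of single cassette exon regions (vertical axes) at each exon length from 31 to 180 nt (horizontal axis), for regions listed in all 6 libraries (top) and in 1 library (bottom), with frame-preserving lengths in green and frame-shifting lengths in grey. In the top panel the green bars stand above the grey bars at nearly every length, as 68.4% of all such regions up to 300 nt preserve the frame, against 43.1% in the bottom panel.

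The sequence of the coding members was compared with that of 55831 other annotated coding internal exons whose length is divisible by 3, as a description without a test. The members numbered 2620 distinct coding exons, all with a sequence. Cassette exons began at a codon boundary in 44.3% of cases, after the first base of a codon in 39.2% and after the second base in 16.5%, against 58.7, 28.3 and 12.9% of the other exons. Upstream introns had a median of 2238 nt and downstream introns of 2210 nt, against 1269 and 1181 nt. Frame-shifting coding cassette exons had medians of 2128.5 and 2015.5 nt, so long flanking introns were shared by both classes of cassette exon. The median GC content was 50.9% against 51.2%, and 56.6% against 57.3% of the exons ended in AG, so the 2 sets lay close in both. The first exon base was G in 41.0% of the cassette exons, 36.4% of those in all 6 libraries and 47.9% of those in 1 library, against 49.4% of the other exons. It was G in 45.9% of the frame-shifting coding cassette exons. An exon with no stop codon in any of its 3 frames made up 7.44% of the cassette exons, 9.95% of those in all 6 libraries and 4.19% of the other exons, which are longer (median 120 nt). Of the frame-shifting coding cassette exons (median 107 nt), 4.64% had no stop codon in any frame. The letters TGCATG, the binding motif of Rbfox proteins, were found on the strand of the gene in 2.40% of the cassette exons and the reverse complement CATGCA in 3.21%, against 3.07 and 3.87% of the other exons. The other exons are longer, and these shares are not corrected for length. Frame-shifting coding cassette exons had 4.03 and 4.42%. The motif and its complement can overlap in the letters CATG, and exons alone were searched, not the introns beside them. The 36-nt exons of Mbnl1 and Mbnl2 printed above both hold TGCATG.

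Genes of the synapse, the cytoskeleton and RNA processing were described through 13 lists of genes. The lists were drawn from genes known for their splicing or their role in this tissue, and most of them have more annotated exons per gene than the listed genes at large, so a high share is no independent evidence. Over all listed genes, 16.6% had a frame-preserving cassette exon in any library and 6.05% had a region listed in all 6. The shares were 73.9% of 46 cytoskeleton, ankyrin and spectrin genes, 71.9% of 32 adhesion genes, 70.6% of 34 trafficking genes, 70.4% of 27 postsynaptic scaffold genes, 63.6% of 33 chromatin and transcription genes, 55.2% of 29 kinase and phosphatase genes, 54.1% of 37 vesicle genes, 53.3% of 15 myelin genes, 49.0% of 49 splicing regulators and 46.2% of 13 GABA-A receptor genes. Voltage-gated channels had 38.2% of 34, metabotropic and monoamine or opioid receptors 27.8% of 18 and ionotropic glutamate receptors 26.3% of 19. The order changed when a region in all 6 libraries was required, with 58.7% of the cytoskeleton genes at the top and 7.69% of the GABA-A receptor genes at the bottom. The median largest number of annotated exons in a transcript was 9 over all listed genes and from 7 to 24 in the lists.

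**Figure D3:**
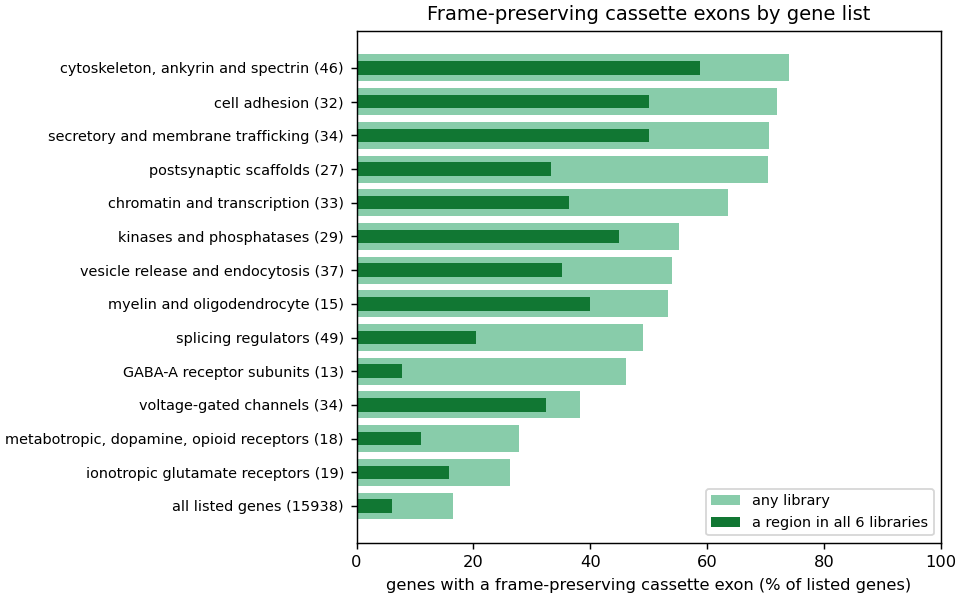
Share of the listed genes of each gene list (horizontal axis, %; number of genes in brackets) that had a frame-preserving cassette exon in any library (light bars) or a region listed in all 6 libraries (dark bars). All listed genes stand at 16.6 and 6.05%, and the cytoskeleton list stands highest at 73.9 and 58.7%.

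Among the receptors, 5 of 19 ionotropic glutamate receptor genes held 10 regions, 5 of them in all 6 libraries. Both Grin1 exons printed above were listed in all 6, the 111-nt exon as 2 regions that end at different downstream splice positions, 25292128 and 25292484. The kainate receptor genes Grik1 (45 nt, chr16:87955289-87955333, 15 codons) and Grik2 (87 nt, chr10:49104979-49105065, partly coding) were listed in all 6 as well. Of the 18 metabotropic, dopamine and opioid receptor genes, 5 held 6 regions. The metabotropic receptor gene Grm5 (96 nt, chr7:88116193-88116288, 32 codons) and the GABA-B receptor gene Gabbr1 (135 nt, chr17:37054131-37054265, 45 codons) were in all 6 libraries. The Drd2 exon was in replicates 1, 2, 3, 4 and 6, with a skipping junction that the annotation lacks. Of 13 GABA-A receptor and anchoring genes, 6 held 8 regions, of which that of the beta subunit gene Gabrb2 (114 nt, chr11:42602115-42602228, 38 codons) alone was in all 6. Gphn, the gene of the inhibitory scaffold gephyrin (108 nt, chr12:78493950-78494057), was in replicates 2 to 6, and a 60-nt exon in the untranslated part of Gabra5 was in replicates 1, 2 and 6.

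Kinases and channels had several exons of known protein inserts in every library. Of 29 kinase and phosphatase genes, 16 held 40 regions, 25 of them in all 6 libraries. The CaM kinase II gene Camk2d listed its 33-nt exon in all 6, and next to it a 60-nt exon (chr3:126805857-126805916, 20 codons) and a 42-nt exon (chr3:126808208-126808249, 14 codons) in the variable linker. The linker exons are shown here because they are used in combination, with capitals again on the last 3 bases.
Camk2d, 60 nt: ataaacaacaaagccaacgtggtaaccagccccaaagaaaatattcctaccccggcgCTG
Camk2d, 42 nt: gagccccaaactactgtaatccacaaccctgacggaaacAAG
Skipping of the 60-nt exon towards the next common exon and skipping of the 42-nt exon behind the 60-nt exon were listed in all 6 libraries. Splicing straight from the upstream exon at 126801761 into the 42-nt exon was listed in replicates 1 to 4, so in 1 of the 3 morphine libraries. The region for skipping of the 42-nt exon from that position was listed in the same replicates, as its inclusion form needs the same junction. Its skipping junction, from 126801761 to 126810639, is also that of the 60-nt region listed in all 6. Camk2b had a 45-nt exon (chr11:5981070-5981114) in all 6. In all 6 libraries too were Map4k4, a MAP kinase kinase kinase kinase gene (231 nt, chr1:40003757-40003987), Mark2, a microtubule affinity regulating kinase gene (162 nt, chr19:7281798-7281959), and Ppp1r12a, the gene of the myosin phosphatase targeting subunit (171 nt, chr10:108253325-108253495).

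Of 34 voltage-gated channel genes, 13 held 27 regions, 12 of them in all 6 libraries. These included the R-type calcium channel gene Cacna1e (129 nt, chr1:154404885-154405013) and the calcium-activated potassium channel gene Kcnma1 (81 nt, chr14:23336040-23336120). A 174-nt exon of Kcnma1 was listed in replicates 3 and 5 and a 156-nt exon in replicate 1. The L-type channel gene Cacna1c had a 75-nt exon in replicate 1 alone. The calcium pump gene Atp2b1 had an 87-nt exon (chr10:99019278-99019364) in all 6.

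Adhesion molecules contributed long and short inserts. Of 32 genes in that list, 23 held 51 regions, 25 of them in all 6 libraries, with 35 to 42 regions per library. The latrophilin gene Adgrl3 (204 nt, chr5:81329757-81329960), the fibronectin gene Fn1 (273 nt, chr1:71613763-71614035) and the axon guidance receptor gene Robo2 (273 nt, chr16:73898912-73899184) were in all 6. The Fn1 exon, 91 codons long, encodes a whole type III repeat of fibronectin. Nrcam, a cell adhesion gene of the immunoglobulin superfamily, listed exons of 36 nt (chr12:44578145-44578180), 153 nt (chr12:44584835-44584987) and 156 nt (chr12:44387900-44388055) in all 6 libraries. The 156-nt exon is annotated as partly coding, in a transcript of another type than protein-coding. A 57-nt coding exon of Nrcam (chr12:44545379-44545435) was listed in morphine replicates 5 and 6.

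The cytoskeleton list was the richest, with 106 regions in 34 of 46 genes, 54 of them in all 6 libraries and 74 to 83 per library. Mapt, the tau gene, listed 2 neighbouring exons of 87 nt (chr11:104287123-104287209 and chr11:104289908-104289994, 29 codons each), the known N-terminal inserts of tau, in all 6 libraries, and a 54-nt exon in replicates 1 to 5. Kif1a, a vesicle motor gene (279 nt, chr1:93051403-93051681), Map2, a dendritic microtubule protein gene (246 nt, chr1:66410574-66410819), and Add1, an adducin gene (279 nt, chr5:34598169-34598447, untranslated), were in all 6. Ank3, the gene of the axon initial segment ankyrin, listed exons of 63 nt and 33 nt in all 6, and a 54-nt exon in replicates 3, 5 and 6 with another neighbour in replicate 4.

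Some genes held many frame-preserving cassette exons. In Ank2, an ankyrin gene with 9 of them, 5 of the 9 exons were in all 6 libraries, and replicates 1 to 6 listed 8, 6, 7, 6, 6 and 5 of them. The Ank2 exons of 99 nt numbered 5, with 33 codons each. This is also the length of an ankyrin repeat, but the encoded domains were not looked up. Of the 5 exons, those at chr3:126963383-126963481, chr3:127012673-127012771 and chr3:127248134-127248232 were in all 6 libraries. The remaining 2 were in replicate 1 alone, although both were in other skipping events of 2 morphine libraries. The exon at chr3:126963383-126963481 begins after the second base of a codon, the others at a codon boundary. Over all genes, 94 regions were 99 nt long. Rims1, an active zone gene, held 7 exons in 12 regions and 3 exons in all 6 libraries. Emsy, a transcriptional regulator gene, held 7 exons with 1 in all 6, and Mlip, a lamin-interacting protein gene, 7 exons with 0 in all 6. Saline replicates listed 1, 0 and 5 of the Mlip exons and morphine replicates 3, 6 and 5, so the groups overlap at 5.

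Scaffolds, vesicle proteins and trafficking adaptors also held such exons, with 34.1, 49.1 and 55.1% of their regions in all 6 libraries against 31.5% over all genes. The scaffold share lay near that of all genes. Over the 13 lists the share ran from 12.5% for GABA-A receptor genes to 66.7% for myelin genes. Of 27 postsynaptic scaffold genes, 19 held 44 regions, 15 of them in all 6, among them Dlg1, the SAP97 gene (99 nt, chr16:31771757-31771855), Grip1 (156 nt, chr10:119985474-119985629) and Lrrc7 (141 nt, chr3:158156788-158156928). Of 37 vesicle release and endocytosis genes, 20 held 53 regions, 26 in all 6. Clta had its 54-nt exon and a following 36-nt exon (chr4:44031400-44031435) in all 6 libraries, each listed as skipped both with and without the other in the transcript, and Cltb had its 54-nt exon in all 6. The clathrin assembly gene Picalm (150 nt, chr7:90182219-90182368), the active zone gene Rims2 (180 nt, chr15:39534838-39535017) and the calcium sensor gene Syt7 (228 nt, chr19:10422785-10423012) were in all 6. Of 34 trafficking genes, 24 held 49 regions, 27 in all 6, among them the coat protein gene Sec31a (291 nt, chr5:100373425-100373715), the exchange factor gene Arhgef7 (177 nt, chr8:11824505-11824681) and the apolipoprotein E receptor gene Lrp8 (177 nt, chr4:107870012-107870188). The membrane curvature gene Bin1 listed exons of 93, 108 and 72 nt in all 6, and a 129-nt exon in replicates 3 and 6.

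Splicing regulators were spliced in this way themselves. Of 49 such genes, 24 held 37 regions, 12 of them in all 6 libraries and 21 to 25 per library. Mbnl1 listed exons of 111 nt (chr3:60596719-60596829) and 54 nt in all 6, and Mbnl2 the exons of 54 and 36 nt. The neuronal splicing factor gene Rbfox1 had an 81-nt exon (chr16:7330362-7330442, 27 codons) in all 6, with a skipping junction that the annotation lacks. Celf2 (144 nt, chr2:6549832-6549975) and Hnrnpd (147 nt, chr5:99963731-99963877), both RNA-binding protein genes, were in all 6 too. Of 33 chromatin and transcription genes, 21 held 44 regions, 15 in all 6, among them Baz2b, a bromodomain gene (285 nt, chr2:59959821-59960105), Crem, a cAMP-response modulator gene (147 nt), and Mbd1, a methyl-CpG binding gene (168 nt). Of 15 myelin and oligodendrocyte genes, 8 held 15 regions, 10 in all 6. Mbp, the myelin basic protein gene, listed exons of 78, 33 and 123 nt in all 6, and Enpp2 (75 nt, chr15:54851348-54851422) and Bcas1 (66 nt, chr2:170356248-170356313) were in all 6. Of the genes looked up by name, App, Dnm1 and Ncam1 had events but 0 frame-preserving single cassette exons of this length.

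Some related genes carried a cassette exon of the same length and similar sequence. An ungapped comparison of the 2620 coding exons gave 27 pairs of equal length between genes at different places with an identity of at least 70%, and these pairs took in 48 of the exons, not all of them in related genes, and had a median identity of 77.8%. In 24 of the 27 pairs both exons began at the same codon position, and in 13 both exons were listed in all 6 libraries. The exons of Mbnl1 and Mbnl2 shared 46 of 54 bases (85.2%) and 31 of 36 (86.1%), and those of Camk2d and Camk2g 26 of 33 (78.8%). Other such pairs listed in all 6 libraries were the dynein genes Dync1i1 and Dync1i2 (60 nt, 76.7%), the actin regulator genes Abi1 and Abi2 (87 nt, 73.6%) and the neuroligin genes Nlgn1 and Nlgn3 (60 nt, 71.7%). The Clta and Cltb exons, at 37 of 54 bases (68.5%), lay below that limit.

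Morphine was compared with saline to ask whether these exons are spliced differently after conditioning. Saline replicates 1, 2 and 3 listed 2264, 2295 and 2450 frame-preserving regions and morphine replicates 4, 5 and 6 listed 2203, 2301 and 2235, so that the groups overlap and saline replicate 3 is highest. The means were 2336 ± 99.7 and 2246 ± 50.0 (SD, n = 3 each), a difference of -90 that did not pass a two-sided exact permutation test (p = 0.3, adjusted p = 0.8 over 3 comparisons, smallest possible p 0.1). The share of single cassette exons of 31 to 300 nt that preserved the frame was 58.1, 57.1 and 57.3% in the saline replicates against 57.0, 58.2 and 58.8% in the morphine replicates (57.5 ± 0.538 and 58.0 ± 0.905%, exact permutation p = 0.6, adjusted p = 0.8, n = 3). The share of frame-preserving regions with an annotated exon was 92.8 ± 0.650% and 93.0 ± 0.680% (exact permutation p = 0.8, adjusted p = 0.8, n = 3). Any 2 libraries shared 59.7 to 60.9% of their combined regions within a group (6 pairs, mean 60.2%) and 58.7 to 60.8% between groups (9 pairs, mean 59.7%). No threshold of 0.05 can be reached with 3 samples against 3.

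**Figure D4:**
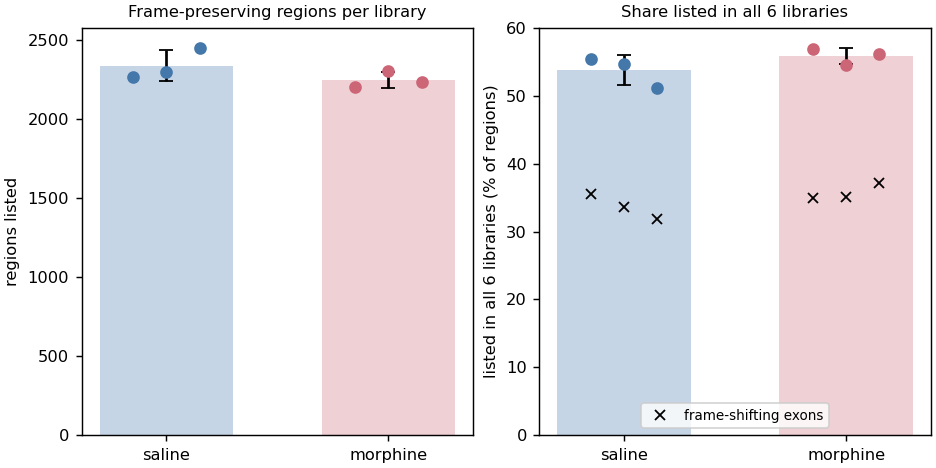
Left, number of frame-preserving regions listed per library (vertical axis), with points for the 3 saline and 3 morphine libraries, bars for the means and error bars for the SD. Right, share of these regions that all 6 libraries list (vertical axis, %), with crosses for the frame-shifting exons of the same libraries. The groups overlap in the left panel, and in the right panel every point (51.3 to 57.0%) lies above every cross (31.9 to 37.1%).

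Regions listed in every library of 1 group and none of the other numbered 15 for morphine (0.377% of 3982) and 19 for saline (0.477%). The same call covered 0.321 and 0.345% of all 128790 distinct events, 0.335 and 0.491% of all single cassette exons, and 0.237 and 0.421% of the frame-shifting ones, so the shares of the frame-preserving exons lie near this background. In both directions together there were 34 (0.854%), against 0.665% of all events, 0.825% of all single cassette exons and 0.658% of the frame-shifting ones. Of the regions listed in exactly 3 libraries, 34 of 305 (11.1%) fell in 1 group, against 857 of 7797 among all events. The exon of 10 of the 34 regions was also skipped in the other group with different neighbours, 4 of 15 for morphine and 6 of 19 for saline. In bulk tissue, fewer cells of a type and less RNA per cell cannot be told apart, and either can leave a region unlisted.

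**Figure D5:**
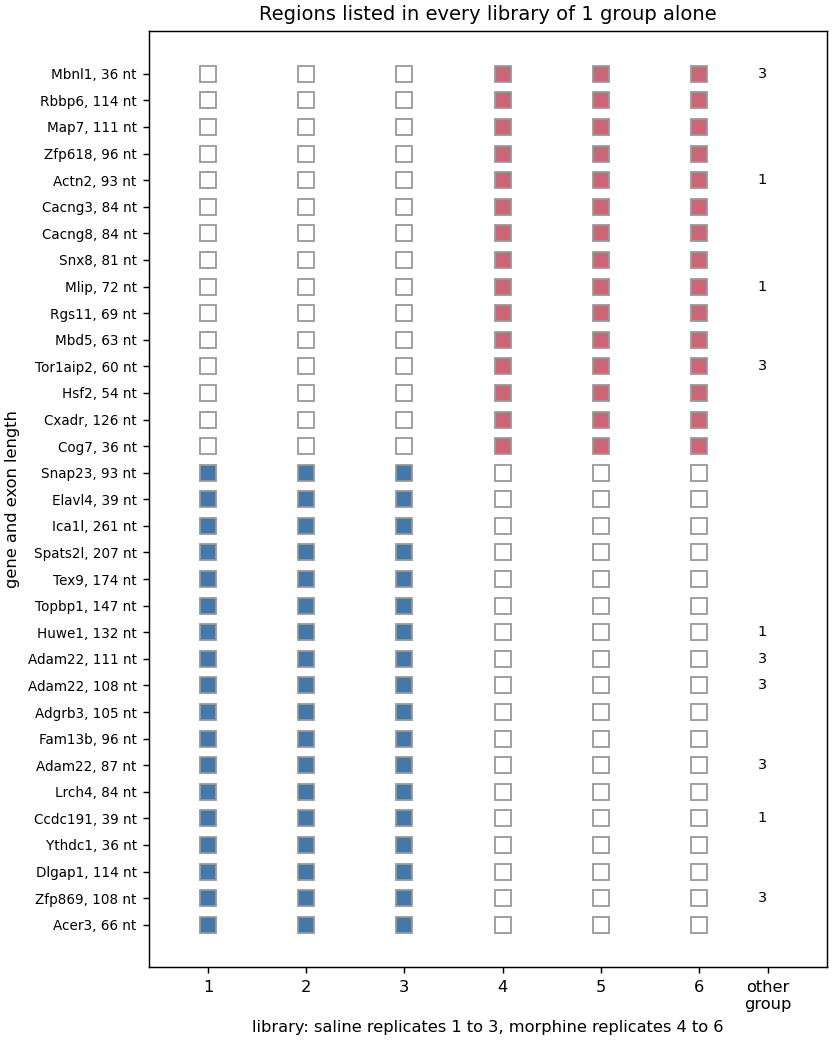
Frame-preserving regions listed in every library of 1 group and no library of the other, by gene and exon length (vertical axis) and library (horizontal axis); filled squares are listed, open squares not listed. Numbers at the right count the libraries of the other group in which the same exon appears in another skipping event. The 15 morphine regions and 18 of the 19 saline regions are shown, and 10 of them carry such a number.

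In morphine, the 10 regions that the naming rule gives were in Mbnl1, Rbbp6, Map7, Zfp618, Actn2, Cacng3, Cacng8, Snx8, Mlip and Rgs11. Cacng3 and Cacng8 encode transmembrane auxiliary subunits of AMPA receptors, and both listed an 84-nt coding exon of 28 codons, at chr7:122754506-122754589 and chr7:3411175-3411258, plus strand, as skipped in replicates 4, 5 and 6 and in no saline library. Both exons begin after the first base of a codon. They are shown because both are from the same family, with capitals at identical bases.
Cacng3, 84 nt: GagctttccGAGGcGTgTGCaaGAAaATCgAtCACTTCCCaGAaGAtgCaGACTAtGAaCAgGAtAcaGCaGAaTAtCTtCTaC
Cacng8, 84 nt: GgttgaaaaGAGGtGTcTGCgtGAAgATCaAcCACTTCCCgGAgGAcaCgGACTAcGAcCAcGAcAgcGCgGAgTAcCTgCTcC
The exons share 53 of 84 bases (63.1%). Every saline library listed 2 events of each gene; the morphine libraries listed 3, 3 and 4 events of Cacng3 and 3 of Cacng8 each, and the skipping itself is 1 of these events. Both genes had listed events in every library. Read depth is unknown, and its part in which regions were listed was not tested. The related genes Cacng2, Cacng4, Cacng5 and Cacng7 had 0 single cassette exons in all 6 libraries. The skipping junction of Cacng3 is annotated and that of Cacng8 is not.

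The Mbnl1 region was that of its 36-nt exon with a downstream junction at 60622146, listed in replicates 4, 5 and 6. The same exon skipped to the junction at 60625124 was listed in replicates 1, 2, 3, 4 and 6, so that skipping of the exon itself was listed in all 3 saline libraries. The exons of Rbbp6, a ubiquitin ligase gene (114 nt, chr7:122987616-122987729), Map7, a microtubule-associated protein gene (111 nt, chr10:20250370-20250480), Zfp618, a zinc finger gene (96 nt, chr4:63086531-63086626), Snx8, a sorting nexin gene (81 nt, chr5:140353433-140353513), and Rgs11, a regulator of G protein signalling (69 nt, chr17:26205707-26205775), were in no skipping event of any saline library. Those of the alpha-actinin gene Actn2 (93 nt, chr13:12294310-12294402) and of Mlip (72 nt, chr9:77216977-77217048) were in another skipping event of 1 saline library. Of the 15 regions, 7 had a skipping junction outside the annotation. The other morphine regions were in Mbd5, Tor1aip2, Hsf2, Cxadr and Cog7.

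In saline, the 10 regions were in Snap23, Elavl4, Ica1l, Spats2l, Tex9, Topbp1, Huwe1, Adgrb3 and, with 2 exons, Adam22. Snap23, a membrane fusion protein gene (93 nt, chr2:120590822-120590914), and Elavl4, a neuronal RNA-binding protein gene (39 nt, chr4:110209740-110209778), were in no skipping event of any morphine library. The Snap23 exon is annotated as partly coding, in a transcript of another type than protein-coding. The Elavl4 exon shares 84.6% of its bases with a 39-nt exon of Elavl2 that was listed in replicates 1, 3, 4, 5 and 6. Also in no morphine library were the skipped exons of Ica1l (261 nt, chr1:59997451-59997711), Spats2l (207 nt, chr1:57900634-57900840), Tex9 (174 nt, chr9:72477737-72477910), the DNA damage response gene Topbp1 (147 nt, chr9:103335812-103335958) and the adhesion receptor gene Adgrb3 (105 nt, chr1:25074685-25074789). That of the ubiquitin ligase gene Huwe1 (132 nt, chrX:151806276-151806407, untranslated) was in another skipping event of 1 morphine library.

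Adam22, which encodes a neuronal receptor for the secreted protein Lgi1, held 3 of the 19 saline regions, all in the part that encodes its intracellular tail. They are exons of 108 nt (chr5:8095073-8095180), 111 nt (chr5:8090142-8090252) and 87 nt (chr5:8087982-8088068) on the minus strand; the last was named after its values were seen. They are shown because they lie close together in 1 gene, with other annotated exons between the 108-nt and the 111-nt exon, and with capitals at the last 3 bases.
Adam22, 108 nt: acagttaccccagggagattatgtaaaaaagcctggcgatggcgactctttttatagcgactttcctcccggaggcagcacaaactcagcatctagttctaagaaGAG
Adam22, 111 nt: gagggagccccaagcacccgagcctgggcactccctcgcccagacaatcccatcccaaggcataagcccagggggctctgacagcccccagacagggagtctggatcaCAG
Adam22, 87 nt: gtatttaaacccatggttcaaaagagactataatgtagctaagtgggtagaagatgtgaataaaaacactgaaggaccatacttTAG
Each of the 3 exons was in another skipping event of all 3 morphine libraries, so that their skipping was listed in both groups, in morphine with other neighbours. The 111-nt and 87-nt regions are not independent, as the inclusion form of both needs the junction between these 2 exons (8088068 to 8090142). The skipping junction of each is also part of a region of the other exon that all 6 libraries list. The saline libraries listed 22, 25 and 25 events of Adam22 and the morphine libraries 17, 32 and 20, so the groups overlap. Further saline regions were in Fam13b, Lrch4, Ccdc191, Ythdc1, Dlgap1, Zfp869 and Acer3.

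When an exon counted as skipped in any skipping event rather than with exact neighbours, 12 of 3722 exons were listed as skipped in every morphine library and no saline library (0.322%), and 16 in every saline and no morphine library (0.43%). The same call covered 0.355 and 0.521% of the 8445 exons of all single cassettes and 0.307 and 0.53% of the 3584 frame-shifting exons, so these shares lie near the background too. Of the 34 regions, 4 lay in genes of the 13 lists, Mbnl1 for morphine and Snap23, Elavl4 and Dlgap1 for saline. The lists hold 6 to 106 regions each, so that at the 0.854% of all regions few or no calls fall in any of them. The number of regions per library overlapped between the groups in 12 of the 13 lists, for example at 8, 6 and 6 against 7, 7 and 5 for ionotropic glutamate receptors. The exception was the list of splicing regulators, in which the saline replicates listed 24, 24 and 25 regions and the morphine replicates 21, 21 and 23. This list was picked out after the values were seen, and over all genes the saline libraries listed 2264 to 2450 regions and the morphine libraries 2203 to 2301, which overlap.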

How the data were processed

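Total RNA of the nucleus accumbens was sequenced on an Illumina platform, per the labels' protocols, and the authors deposited 1 catalogue of transcription and splicing events per sample, with 20 event types. Their aligner, event caller and genome build are not given in sources used here, and read depth is unknown. The deposited column headed as an expression value holds whole numbers at or below 0, whose meaning is not settled, and it was not used; the measure is whether a library lists a region, with no counting interval. The members and gene lists were chosen with earlier results of these data known. Rows that repeat an event for its partner transcript were left out of totals. Exons were matched to GENCODE M21 (GRCm38) by gene ID and exact coordinates, which matched 15815 of 15939 gene IDs. Group values were compared by exact two-sided permutation over 3 against 3 samples with Benjamini-Hochberg adjustment, and no test across all genes was fitted. The scripts were tested on simulated catalogues with regions planted by the same rule as the call. This checks the code and does not show how often such regions arise without a group difference. Sequences came from annotated transcripts, so exons outside the annotation and introns were not searched. Named were up to 10 regions per direction of the regions in 1 group alone (annotated first, then genes with events in all 6 libraries, list genes, longer exons), up to 3 regions per list (most libraries, annotated, longer), the 5 genes with most exons, 26 genes by name, and the regions at the length limits. Python 3.11.15, pandas 2.3.3, NumPy 2.4.6, SciPy 1.17.1 and matplotlib 3.10.9 were used. Some items of these sets are not reported here.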

Additional observations from a re-analysis of the deposited data

How the results depend on the processing

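The differences between the groups in the number of regions and in the frame-preserving share kept their direction under all 11 alternatives each. They also stayed short of the threshold, but no alternative could pass it. The smallest possible p was 0.1 with 3 samples per group, and leaving out a library does not lower it. Only the direction and size of the differences can therefore be compared between alternatives. Leaving out each library in turn gave -126 to -33.2 regions and 0.0936 to 0.988 percentage points. The difference in the share of annotated exons, 0.196 percentage points, turned to -0.127 without saline replicate 3 and to -0.0125 without morphine replicate 6 and reached 0.589 without morphine replicate 5; the cause was not tested. Leaving out a library makes the call for 1 group easier to meet, and the counts then ranged from 28 to 57 for morphine and from 47 to 62 for saline. With exons defined without their neighbours, with skipping events of another code added, with 51 to 200 nt, with annotated exons alone, with genes in all 6 libraries alone or with any skipping event (the last chosen after seeing the data), the counts stayed within 1.5 times of 15 and 19. No paired analysis was possible because the groups share no replicate number. Depth is unknown, so regions listed in few libraries may be limited by it.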

Other observations

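A set of frame-preserving cassette exons recurred in all 6 libraries with the exon or its skipping junction outside the annotation. The exon was not annotated in 2.63% of the regions in all 6 libraries and 20.9% of those in 1 library, unmatched gene IDs included. Among genes that the annotation holds, there were 29 regions in 28 genes whose exon is not annotated, with a median of 87 nt. Of these, 25 had an annotated skipping junction, and 27 lay on the strand of the gene. A further 4 regions belong to gene IDs without a match and are not counted. Taok1, a kinase gene of neuronal signalling, held 2 of them next to each other, of 63 nt (chr11:77601699-77601761) and 87 nt (chr11:77605552-77605638). Others lay in the actin crosslinker gene Flna (57 nt, chrX:74240816-74240872), the diacylglycerol kinase gene Dgki (123 nt, chr6:37058306-37058428), the receptor phosphatase gene Ptprm (51 nt, chr17:66697653-66697703), the ephrin receptor gene Epha6 (120 nt, chr16:60483791-60483910) and the contactin gene Cntn5 (66 nt, chr9:10168768-10168833). Another 53 regions in 51 genes had an annotated inclusion form and a skipping junction outside the annotation, and 51 of these were wholly coding. They included Rbfox1, Nova1, the calcium channel gene Cacna1a, the adenylyl cyclase gene Adcy8, the clock gene Clock and the dynamin-like gene Dnm1l.

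Of the 27 pairs of similar exons, 3 were formed by the unrelated genes Homer1, Nrf1 and Fam168b, and 1 by the kinase genes Braf and Mast4 (36 nt, 77.8%), which are not close relatives. The 36-nt coding exons of Homer1, a postsynaptic scaffold gene, Nrf1, a transcription factor gene, and Fam168b share 77.8 to 83.3% of their bases in each pair. They are shown with capitals at the bases common to all 3 (chr13:93386345-93386380, plus strand; chr6:30090269-30090304, plus; chr1:34824020-34824055, minus).
Homer1, 36 nt: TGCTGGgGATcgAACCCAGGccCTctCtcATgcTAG
Nrf1, 36 nt: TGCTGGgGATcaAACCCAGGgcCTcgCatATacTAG
Fam168b, 36 nt: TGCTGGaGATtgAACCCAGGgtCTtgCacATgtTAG
Skipping of the Homer1 exon was listed in replicates 1, 3, 4, 5 and 6, of the Nrf1 exon in replicate 4 and of the Fam168b exon in all 6.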
